A study of Mus musculus with 6 samples.

Results

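The genes described are 10 components of the Notch pathway: the receptors Notch1, Notch2, Notch3 and Notch4, the ligand Dll1, the nuclear factors Rbpj and Maml1, and the targets Hes1, Hey1 and Dtx1. They were listed by name and found through the platform annotation, and all 10 of the 10 were measured, among 19938 genes in all. Notch is a receptor system between touching cells. Ligands of the Delta and Jagged families bind the receptor, proteases of the ADAM and gamma-secretase types then cut it, and the freed intracellular domain enters the nucleus, where it binds the DNA-binding protein RBPJ and recruits a Mastermind coactivator to switch on genes such as Hes1. In innate lymphoid cells of the gut, Notch is best known for promoting the group 3 subset that carries the receptor NKp46 and expresses T-bet, a subset distinct from the CCR6+ cells profiled here.

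The cells were CCR6+ group 3 innate lymphoid cells (ILC3s), sorted from small intestinal lamina propria of adult C57BL/6 mice. Control mice were Tnfsf11fl/fl, and the mice called RANKL-deficient were Tnfsf11fl/fl and also carried Cre, so both groups carried floxed alleles of Tnfsf11, the gene of the cytokine RANKL, and the labels name Cre in the second group only. An effect of Cre and one of the deletion therefore cannot be told apart. Each group had 3 arrays, each from an RNA sample of which 2 ng was amplified, and the labels do not tell whether each sample was a separate mouse. The p-values therefore cover only sample-to-sample spread, part or all of which may be technical.

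All values are log2 expression values of Affymetrix arrays, and all differences are RANKL-deficient minus control on that scale. The median value per array lay between 5.07 and 5.15. Control array 1 stood apart, correlating least with the rest (mean 0.960, against 0.970 to 0.977), and control array 2 had the next lowest, so values without one or both are given beside differences that they move most. The array weights from limma also put control array 1 lowest, at 0.45. They ranked the other control arrays otherwise, at 0.60 for array 3 and 1.43 for array 2, the highest of the controls. Control cells had a Tnfsf11 value of 8.47 ± 0.26 and RANKL-deficient cells one of 8.51 ± 0.15 (SD, n = 3 each), and the position of its probe set relative to the floxed part is not known here, so it does not check the labels. Of the 14 ILC3 markers listed, 12 were measured, all with a mean above the median gene (5.12), among them Ccr6, Kit and Il7r. Of the 12, 7 had higher and 5 lower values in RANKL-deficient cells, with differences from −0.42 for Ltb to 0.85 for Cxcr5. The RANKL-deficient arrays lay above all control arrays for 3, or 25%, where 5.28% of all genes did so. The summed level of the 12 (log2 of the summed linear values) was higher on all RANKL-deficient arrays, at 14.38 to 14.47 beside 14.29 to 14.36. Such a sum weighs the highest genes most, here Il7r and Thy1, so it does not show that the markers rose together. The part of this summed level in the results on the Notch genes was not tested.

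None of the 10 Notch genes passed the adjusted threshold of 0.05 (limma with Benjamini-Hochberg adjustment over all genes, lowest adjusted p = 0.615), where 0.00502% of all genes did, namely 1 gene. At an unadjusted p under 0.05 there were 0 of the 10 in either direction, where 4.25% of all genes passed higher and 3.9% lower. Of the 10 genes, 5 had higher and 5 lower values in RANKL-deficient cells, and their median difference was −0.014, where the median over all genes was −0.054. The RANKL-deficient arrays lay below all control arrays for 2 of the 10, Maml1 and Notch3, or 20%, where 9.08% of all genes did so. They lay above all control arrays for 0 of the 10, where 5.28% of all genes did so. These arrays hold bulk RNA, in which fewer cells of a type and less RNA per cell cannot be told apart.

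**Figure D1:**
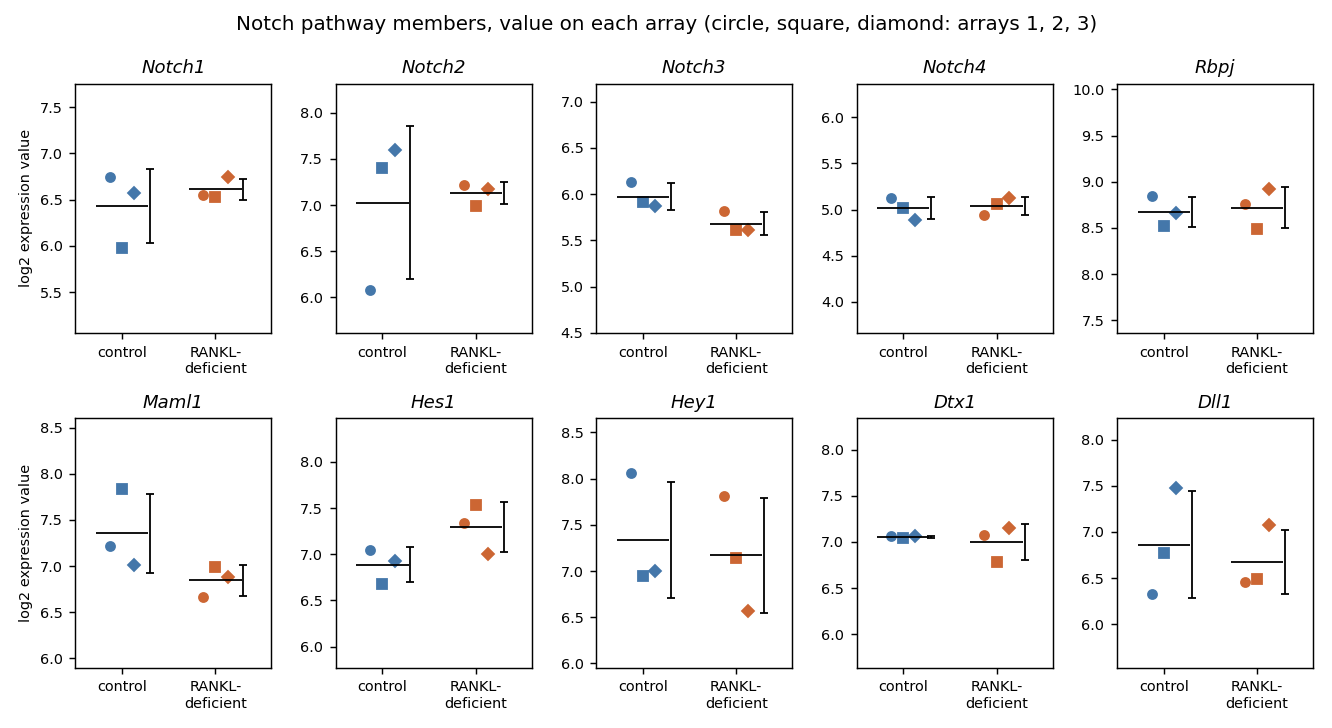
Log2 expression value of each of the 10 Notch genes (vertical axes, each spanning the same width on the log2 scale) on the 3 control and the 3 RANKL-deficient arrays. Horizontal lines are group means and bars are 1 SD; the groups separate for Notch3 and Maml1, while Notch2 on control array 1 (6.08) and Hey1 on control array 1 (8.06) lie far from the other control arrays.

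Among the receptors, Notch1, the main receptor of T cell development, measured 6.75, 5.98 and 6.57 on control arrays 1, 2 and 3 and 6.55, 6.53 and 6.74 on the RANKL-deficient arrays (probe set 10481056). The groups overlapped, and control array 2 alone was low. The difference was 0.18 (SE 0.21, limma adjusted p = 0.824), with a 95% confidence interval from −0.32 to 0.68. Without control array 2 it was −0.047.

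Notch2, the receptor needed by marginal zone B cells and by some intestinal dendritic cells, measured 6.08, 7.40 and 7.60 on the control arrays and 7.21, 6.99 and 7.17 on the RANKL-deficient arrays (probe set 10494595). The 3 RANKL-deficient values lay between control array 1, which was low, and the other two control arrays. The difference was 0.10 (SE 0.38), and its interval of −0.79 to 0.99 was among the widest of the 10 genes. Its sign turned to −0.37 without control array 1 and to −0.47 without control arrays 1 and 2, so that this array fixed the direction.

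Notch3, a receptor best known from the mural cells of blood vessels, measured 6.14, 5.91 and 5.87 on the control arrays and 5.82, 5.61 and 5.61 on the RANKL-deficient arrays (probe set 10449775). All RANKL-deficient values were lower, but the gap between the groups was 0.052. The difference was −0.29 (SE 0.14, interval −0.62 to 0.027, limma adjusted p = 0.622), and it lay between −0.37 and −0.21 when any 1 array was left out. Of 7 pericyte and fibroblast markers, 6 had lower values too, where 60.5% of all genes did, and Rgs5 went the other way, by 0.017. Only 1 of the 7 separated the groups, or 14.3%, where 9.08% of all genes were lower without overlap. The summed levels of the 7 overlapped, at 9.17 to 9.87 on the control arrays and 8.89 to 9.19 on the RANKL-deficient arrays. Of that list, 2 genes had a mean below the median gene. Its part in the Notch3 difference was not tested.

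Notch4, the receptor of vascular endothelium, measured 5.13, 5.02 and 4.89 on the control arrays and 4.94, 5.06 and 5.13 on the RANKL-deficient arrays (probe set 10444352). It was the 1 gene of the 10 with a mean below the median of all genes, and its 6 values spanned 0.24, the narrowest range of the 10. The difference was 0.029 (SE 0.13), with an interval from −0.27 to 0.33. Endothelial markers had lower values in all 7 of 7 genes, and 4 of these did not overlap between groups, where 60.5% of all genes had lower values and 9.08% were lower without overlap. Their summed levels overlapped, however, at 8.37 to 8.78 on the control arrays and 8.29 to 8.56 on the RANKL-deficient arrays, and 6 of the 7 lay below the median gene. Another 6 probe sets carry the symbol Notch4 together with Sympk and were not used for Notch4.

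The 1 ligand of the set, Dll1, a Delta-type ligand presented by stromal cells of lymphoid tissue, measured 6.33, 6.78 and 7.48 on the control arrays and 6.46, 6.49 and 7.07 on the RANKL-deficient arrays (probe set 10448034). Both groups spread widely and overlapped. The difference was −0.19 (SE 0.31, limma adjusted p = 0.874), with an interval from −0.92 to 0.55, and it turned to 0.12 without control array 3.

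Of the nuclear factors, Rbpj, which holds Notch targets silent until the receptor's intracellular domain arrives, measured 8.84, 8.52 and 8.66 on the control arrays and 8.76, 8.49 and 8.92 on the RANKL-deficient arrays (probe set 10521913). The groups overlapped throughout. The difference was 0.046 (SE 0.16), and the interval of −0.33 to 0.43 leaves out a change of 1 log2 unit in either direction. A second Rbpj probe set, 10521911, had values near 3 on every array (2.69 to 3.15) and a difference of −0.14. With both averaged, the difference was −0.048, and with quantile normalization −0.020.

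Maml1, a Mastermind coactivator, had the largest difference of the 10 genes. It measured 7.21, 7.84 and 7.01 on the control arrays and 6.66, 6.99 and 6.89 on the RANKL-deficient arrays (probe set 10385591). All RANKL-deficient values were lower, although control array 3 and RANKL-deficient array 2 were only 0.020 apart. The difference was −0.51, or 1.42-fold lower (SE 0.23, interval −1.05 to 0.032, limma adjusted p = 0.618). Leaving out control array 2, the highest, brought it to −0.27, and leaving out control arrays 1 and 2 to −0.16. The paralogs Maml3 and Maml2, which act in the same complex, differed by −0.26 and −0.18, and Maml2, picked once its value was known, turned to 0.25 when its probe sets were averaged.

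**Figure D2:**
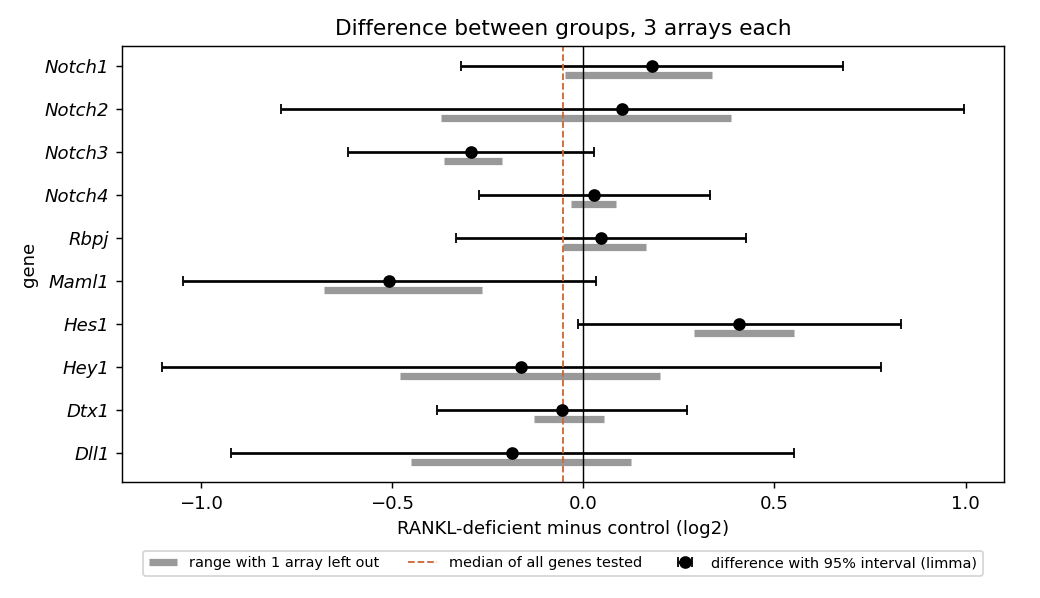
Difference between RANKL-deficient and control arrays for each Notch gene (horizontal axis, log2), as a point with its 95% confidence interval from limma. Grey bars give the range of the difference when 1 array at a time was left out; every interval includes 0, and the grey bars stay on one side of 0 for Notch3, Maml1 and Hes1 only.

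Among the targets, Hes1, a repressor of the basic helix-loop-helix family and the most widely used readout of Notch activity, had the largest difference in the higher direction. It measured 7.05, 6.68 and 6.93 on the control arrays and 7.34, 7.53 and 7.01 on the RANKL-deficient arrays (probe set 10434925). RANKL-deficient array 3 lay just below control array 1, by 0.042, and the other two RANKL-deficient arrays lay above all controls. The difference was 0.41, or 1.33-fold (SE 0.18, interval −0.014 to 0.83, limma adjusted p = 0.615). It lay between 0.29 and 0.55 when any 1 array was left out.

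Hey1, a related repressor induced by Notch in vessels and other tissues, measured 8.06, 6.94 and 7.00 on the control arrays and 7.81, 7.14 and 6.56 on the RANKL-deficient arrays (probe set 10497203). Each group held 1 high array and the groups overlapped across most of their range. The difference was −0.16 (SE 0.40), with an interval from −1.10 to 0.78. It turned to 0.20 without control array 1 and to 0.14 without RANKL-deficient array 3.

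Dtx1, an E3 ubiquitin ligase that binds the Notch intracellular domain and is itself induced by Notch in lymphocytes, measured 7.06, 7.05 and 7.06 on the control arrays and 7.07, 6.78 and 7.15 on the RANKL-deficient arrays (probe set 10533182). The control arrays were almost identical (SD 0.0099), and RANKL-deficient array 2 was low. The difference was −0.056 (SE 0.14), with an interval from −0.38 to 0.27. With all arrays used, the 3 targets differed in sign, with Hes1 at 0.41, Dtx1 at −0.056 and Hey1 at −0.16. However, Dtx1 turned to 0.054 without RANKL-deficient array 2 and Hey1 to 0.20 without control array 1, so neither has a settled direction.

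To place the 10 genes in the wider pathway, 91 further genes were listed by role, of which 86 were measured. None passed the adjusted threshold (limma, lowest adjusted p = 0.256), and at an unadjusted p under 0.05 there were 8 higher and 4 lower of the 86, beside 4.25% and 3.9% of all genes. The groups did not overlap for 18 of the 86. RANKL-deficient arrays were higher for 11 of these, or 12.8% of the 86, beside the 5.28% of all genes, and lower for 7, or 8.14%, beside 9.08%. Of the 86, 45 had higher and 41 lower values, where 60.5% of all genes had lower ones. That share is also the background for the counts of each list below. The median difference of the 86 was 0.023, beside −0.054 over all genes. It moved with the scaling, to −0.026 with quantile normalization and 0.061 with median centring, so no direction is given for the whole set.

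**Figure D3:**
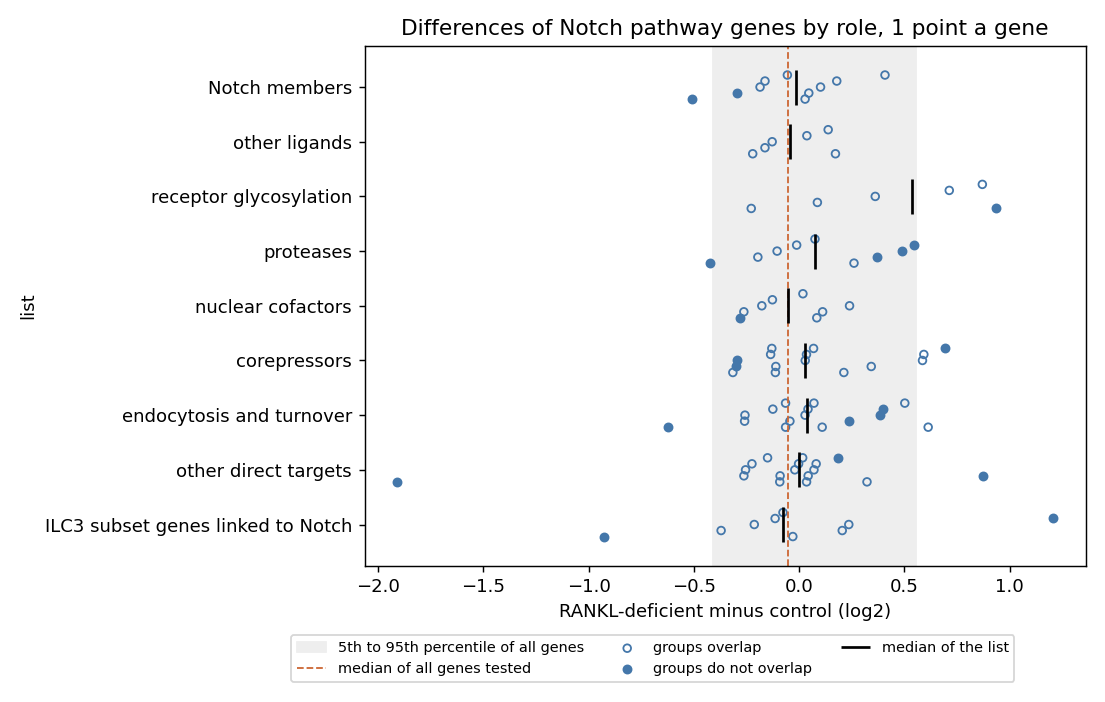
Difference between RANKL-deficient and control arrays (horizontal axis, log2) for the 10 Notch genes and for the measured genes of 8 role lists, 1 point a gene. Filled points are genes whose groups do not overlap, black bars list medians and the grey band holds the 5th to 95th percentile of all genes; the receptor glycosylation list has the highest median (0.54) and Cd3g the lowest point (−1.91).

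Of the other ligands Jag1, Jag2, Dll3, Dll4, Dlk1 and Dlk2, 3 had higher and 3 lower values, and differences ran from −0.22 for Jag2 to 0.17 for Dlk1, a ligand-like protein picked once its value was known. No ligand separated the groups, and the list median was −0.045. Jag2 measured 4.94 ± 0.15 on the control arrays and 4.71 ± 0.17 on the RANKL-deficient arrays (SD, n = 3 each), and Dll3, an atypical ligand, differed by −0.16.

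Genes for receptor glycosylation had 5 of 6 values higher, where 60.5% of all genes had lower ones. Their median difference was 0.54, beside −0.054 over all genes, although none passed the adjusted threshold. The RANKL-deficient arrays lay above all control arrays for 1 of the 6, Rfng, or 16.7%, where 5.28% of all genes did so. Fringe enzymes add N-acetylglucosamine to O-fucose on Notch and so alter which ligands it answers to. Rfng, radical fringe, measured 4.97, 5.03 and 5.04 on the control arrays and 6.22, 6.03 and 5.58 on the RANKL-deficient arrays. Its control arrays lay within 0.1 of each other and below the median gene, and all RANKL-deficient arrays lay at least 0.54 above them. The difference was 0.93, or 1.91-fold (SE 0.18, interval 0.51 to 1.36, limma adjusted p = 0.330), and it stayed between 0.80 and 1.12 when any 1 array was left out.

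Lfng, lunatic fringe, the fringe best known from thymocytes and marginal zone B cells, measured 6.30, 7.70 and 7.20 on the control arrays and 7.81, 7.54 and 8.46 on the RANKL-deficient arrays. Control array 2 lay above RANKL-deficient array 2, so the groups overlapped. The difference was 0.87 (SE 0.39, limma adjusted p = 0.618) and was 0.49 without control array 1. Mfng, manic fringe, picked once its values were known, differed the other way, by −0.23. The enzymes that place the O-linked sugars, Pofut1 (O-fucose) and Poglut1 (O-glucose), picked in the same way, differed by 0.36 and 0.71 with overlapping groups. Pofut1 turned to −0.23 without RANKL-deficient array 3, and Poglut1 was 0.039 without control array 1 and 0.21 with array weights.

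The proteases had 5 of 9 values higher, where 60.5% of all genes had lower ones. The RANKL-deficient arrays lay above all control arrays for 3 of the 9, or 33.3%, where 5.28% of all genes did so. They lay below all control arrays for 1, or 11.1%, where 9.08% of all genes did so. Both genes of that list with the lowest p are subunits of gamma-secretase, the membrane complex that makes the last cut of Notch and also cuts many other membrane proteins. Psenen, its smallest subunit, measured 10.42, 10.09 and 10.42 on the control arrays and 11.02, 10.92 and 10.63 on the RANKL-deficient arrays, a difference of 0.55 (SE 0.16, limma adjusted p = 0.514). Ncstn, nicastrin, the subunit that receives the substrate, measured 7.82, 7.78 and 7.64 on the control arrays and 7.98, 8.25 and 8.11 on the RANKL-deficient arrays, a difference of 0.37 (SE 0.13, limma adjusted p = 0.582). In both genes the groups did not overlap, by 0.21 and by 0.16.

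The other subunits were named after their values were seen. Aph1a, the scaffold subunit, also separated the groups, at 6.90 ± 0.20 on the control arrays and 7.38 ± 0.24 on the RANKL-deficient arrays (SD, n = 3 each, difference 0.49). Its paralogs Aph1c and Aph1b, near-identical copies whose signals may be shared, differed by −0.42 and −0.20. Psen2, a catalytic subunit, differed by 0.075. Of the 6 subunits measured, 4 had higher values, where 60.5% of all genes had lower ones, and 0 passed the adjusted threshold. The RANKL-deficient arrays lay above all control arrays for 3 of the 6, or 50%, where 5.28% of all genes did so. They lay below all control arrays for 1, Aph1c, or 16.7%, where 9.08% of all genes did so. These subunits were grouped after their values were seen, so the shares are no test.

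**Figure D4:**
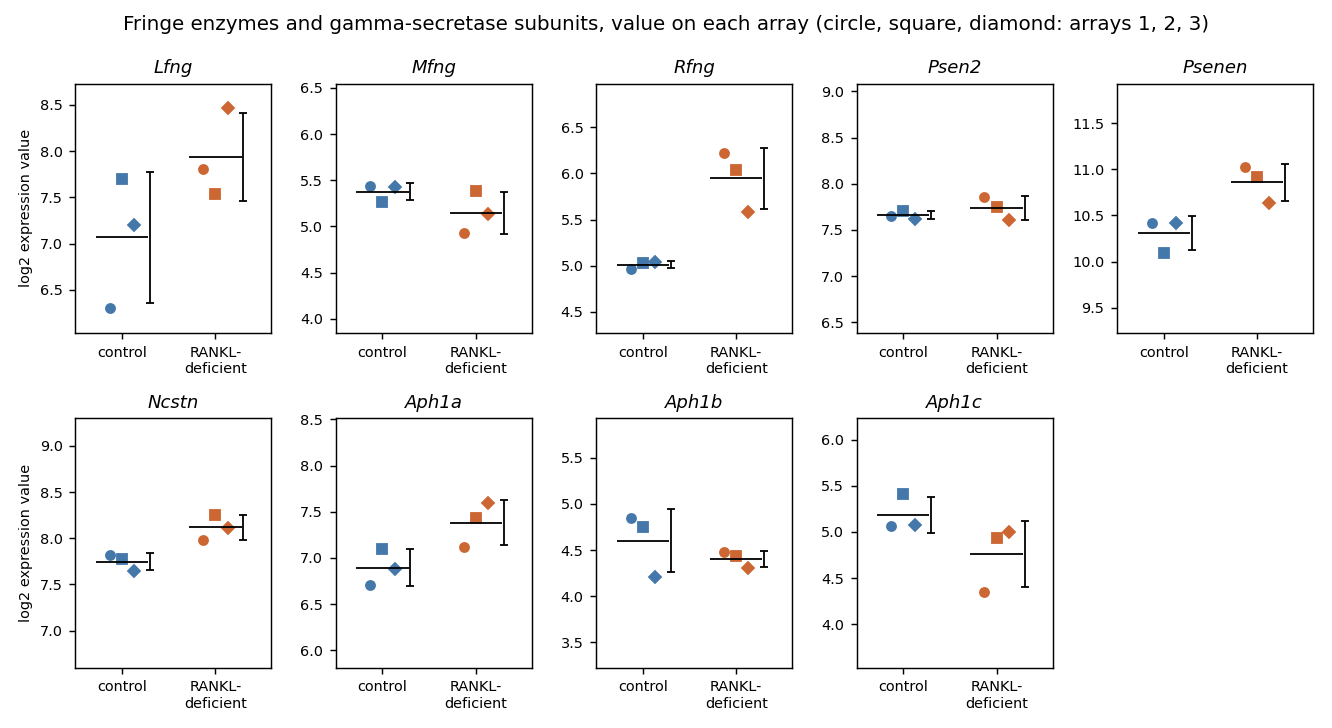
Log2 expression value (vertical axes, each spanning the same width) of the 3 fringe enzymes and the 6 measured gamma-secretase subunits on the 3 control and the 3 RANKL-deficient arrays. Horizontal lines are group means and bars are 1 SD; RANKL-deficient arrays lie above all control arrays for Rfng, Psenen, Ncstn and Aph1a and below them for Aph1c.

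Nuclear cofactors and corepressors differed in both directions. Of the 8 cofactors, 4 had higher values, and the acetyltransferase Ep300, which joins the Notch and Mastermind complex, was lower on all RANKL-deficient arrays (8.73 ± 0.13 and 8.45 ± 0.070, difference −0.28). Of the 15 measured corepressors, 8 had higher values. L3mbtl3, a chromatin reader that binds RBPJ, measured 5.89 ± 0.38 on the control arrays and 6.59 ± 0.29 on the RANKL-deficient arrays, a difference of 0.70 that was 0.26 without control arrays 1 and 2. Cir1, a corepressor that links RBPJ to histone deacetylases, measured 8.40 ± 0.12 and 8.10 ± 0.080, a difference of −0.30. Both separated the groups, and neither passed (limma adjusted p = 0.563 and 0.607).

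In receptor endocytosis and turnover, 9 of 16 genes had higher values. Dtx4, a Deltex paralog of Dtx1, had the largest difference of that list. It measured 8.73, 8.26 and 8.38 on the control arrays and 7.58, 7.79 and 8.13 on the RANKL-deficient arrays, and all RANKL-deficient arrays were lower. The difference was −0.62 (SE 0.19, limma adjusted p = 0.523), beside −0.056 for Dtx1. Itch, an E3 ligase that acts on Notch and on other lymphocyte proteins, measured 9.22 ± 0.25 and 9.61 ± 0.12 (SD, n = 3 each), a difference of 0.39 with a gap of 0.069 between the groups, and 0.17 without control arrays 1 and 2.

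Of 17 further genes listed here as direct targets, 8 had higher values, where 60.5% of all genes had lower ones. Their median difference was −0.0024, beside −0.054 over all genes. Whether Notch acts on each of them in these cells was not tested. Myc, a growth regulator that Notch induces in T lineage cells, measured 5.54, 6.71 and 5.94 on the control arrays and 6.76, 7.30 and 6.75 on the RANKL-deficient arrays. All RANKL-deficient arrays were higher, but control array 2 came within 0.038 of them. The difference was 0.87, or 1.83-fold (SE 0.31, limma adjusted p = 0.582), and 0.61 without control array 1. The standard readout Hes5 and Nrarp, a feedback inhibitor of Notch, differed by 0.043 and 0.081; both were picked once their values were known. The sign for Hes5 turned with quantile normalization.

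Cd3g, a chain of the CD3 complex of T cells and a target of Notch in the thymus, had the largest difference of all these lists. It measured 7.32, 6.93 and 5.82 on the control arrays and 5.26, 4.20 and 4.89 on the RANKL-deficient arrays. No array of one group reached the other, and the difference was −1.91, or 3.75-fold lower (SE 0.43, interval −2.91 to −0.90, limma adjusted p = 0.408). Without control arrays 1 and 2, the highest, it was −1.04. Of 7 T cell markers measured, Cd3g included, 6 had lower values, where 60.5% of all genes did, and their median difference was −0.028. Only Cd3g separated the groups, or 14.3% of the 7, where 9.08% of all genes were lower without overlap. The summed levels of the 7 overlapped, at 7.81 to 8.73 on the control arrays and 7.55 to 7.90 on the RANKL-deficient arrays. Of those 7, 5 lay below the median gene, Cd8a, Cd8b1, Cd28, Cd5 and Cd3d, and the differences were −0.70 for Cd3e, −0.0044 for Cd8a and 0.26 for Cd3d. The part of T cell RNA in the Cd3g difference was not tested.

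Promoters of these genes were searched for the letters GTGGGAA, the core recognised by RBPJ, on both strands. Each window ran from 250 bases before to 50 after a start site, from RefSeq on GRCm38.p6. Of the 10 Notch genes, 8 matched a promoter, all but Hes1 and Hey1, and 0 of these 8 held the letters. Of the listed pathway genes, 71 matched a promoter, with 94 promoters in all. Of these 94, 9 held the letters (9.57%), each of a different gene, beside 6.38% of all 32851 promoters. Windows from 3 of the 9 are shown because they pair the same letters with different values. Hes5 holds the letters at −226 (opposite strand) and −83 and differed by 0.043, Lfng holds them at −109 and differed by 0.87, and Cd3g at −175 and differed by −1.91. Capitals mark the searched letters, or their reverse complement in the first match of Hes5, and positions count back from the start site.
Hes5, chr4:154960682-154960861, plus strand: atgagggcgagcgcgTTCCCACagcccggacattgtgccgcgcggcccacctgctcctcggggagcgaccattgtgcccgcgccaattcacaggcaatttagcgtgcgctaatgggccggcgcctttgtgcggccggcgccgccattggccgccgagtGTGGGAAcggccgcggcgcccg
Lfng, chr5:140607217-140607253, plus strand: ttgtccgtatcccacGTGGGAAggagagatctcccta
Cd3g, chr9:44980585-44980621, minus strand: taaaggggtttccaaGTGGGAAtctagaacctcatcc
A match describes the letters only, and binding was not measured.

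The last list held genes that distinguish the NKp46+ subset, whose formation depends on Notch, from other ILC3s. Of 9 measured, 3 had higher values, namely Klrk1, Cxcr6 and Ahr. Ncr1, which encodes NKp46, measured 4.37, 5.57 and 4.15 on the control arrays and 3.76, 3.92 and 3.64 on the RANKL-deficient arrays, and all RANKL-deficient arrays were lower. The difference was −0.93 (SE 0.36, limma adjusted p = 0.597), −0.49 without control array 2 and −0.37 without control arrays 1 and 2, and its mean lay below the median gene. Tbx21, which encodes T-bet, and Klrb1c, the NK1.1 gene, both picked once their values were known, differed by −0.21 and −0.37 and overlapped between groups. Tbx21 was −0.017 without RANKL-deficient array 3, and Klrb1c was −0.11 without RANKL-deficient array 1. Of 6 markers of NKp46+ ILC3s and ILC1s, 6 had lower values, where 60.5% of all genes did, and 5 lay below the median gene. These markers include Ncr1, Tbx21, Klrb1c and Ifng from the list above, but not Klrk1, Cxcr6 or Ahr, which had higher values. Only Ncr1 separated the groups, or 16.7% of the 6, where 9.08% of all genes were lower without overlap. The summed levels of the 6 overlapped, at 7.31 to 7.79 on the control and 7.21 to 7.37 on the RANKL-deficient arrays. The part of such cells in the Ncr1 difference was not tested.

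Klrk1, which encodes the activating receptor NKG2D, went the other way and had the lowest p of the pathway lists. It measured 7.21, 7.74 and 7.55 on the control arrays and 9.00, 8.57 and 8.54 on the RANKL-deficient arrays, with a gap of 0.80 between the groups. The difference was 1.20, or 2.30-fold (SE 0.20, interval 0.74 to 1.67, limma adjusted p = 0.256), and it lay between 1.05 and 1.33 when any 1 array was left out.

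Markers of the remaining cell types that a gut preparation can hold overlapped between groups in their summed levels. B cell markers had lower values in 4 of 4 genes (7.31 to 7.92 on the control and 7.26 to 7.64 on the RANKL-deficient arrays), and epithelial markers in 7 of 7 (8.68 to 9.15 and 8.02 to 9.12). Lower values were found for 60.5% of all genes, and no gene of either list separated the groups. Myeloid markers had higher values in 5 of 7 (8.24 to 8.46 and 8.09 to 8.66), against the direction of most genes. The RANKL-deficient arrays lay above all control arrays for 1 of the 7, or 14.3%, where 5.28% of all genes did so.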

How the data were processed

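The authors deposited log2 values for 35556 probe sets of 6 Affymetrix arrays. The submitters' processing notes name RMA and the software Affymetrix Expression Console. No version and no genome build is given there. Because RMA brings the arrays to nearly the same distribution, it would hide a shift shared by all genes of a group.

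Probe sets with 1 symbol (21789) were named by the platform annotation and updated by Entrez identifier through RefSeq (GRCm38.p6). The 1621 probe sets with several symbols and the 12146 without one were not used, which leaves some listed genes not analysed here. Some items are not reported here. For the 999 genes with several probe sets, the one with the highest mean was used. limma 3.58.1 (lmFit and eBayes, R 4.3.3) gave the two-sided test between groups, without a filter on low values, and p-values were adjusted by Benjamini-Hochberg over all 19938 genes. The procedure was tested on simulated data. With 3 arrays a group, an exact permutation test cannot go below 0.1, so none was used. The number of arrays limits the precision.

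The members and lists were chosen with earlier results of these data known. The 10 members are always named, and of each role list the 2 genes with the lowest p. Alternatives were quantile normalization, median centring, a replicate block, eBayes with trend and robust options, array weights, each array left out, control arrays 1 and 2 left out, genes above the median only, all probe sets tested, and probe sets averaged.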

Additional observations from a re-analysis of the deposited data

Results flagged for a closer look

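The 6 probe sets that carry both symbols, Notch4 and Sympk, had higher values on every RANKL-deficient than on every control array, and they stand outside the tests by gene. The difference was 1.02 for probe sets 10401931 and 10401937, which hold identical values. It was 0.57 for 10504753 and 0.57 for 10504761, 0.74 for 10538890 and 0.78 for 10538892. Probe set 10401931 measured 5.67, 5.09 and 5.73 in control and 6.62, 6.64 and 6.29 in RANKL-deficient cells. The probe set that carries Notch4 alone differed by 0.029. All 6 list the same 2 accessions in the annotation, which no other named probe set of the array lists together. The source of their signal was not tested, and they are not a measure of Notch4.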

How the results depend on the processing

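Under the 15 alternatives, 0 of the 10 Notch genes and 0 of the 86 other pathway genes passed the adjusted threshold (lowest adjusted p of a named gene 0.144). Of the 39 pathway genes named with a difference, 28 kept their direction throughout. The reversals were Notch2 (−0.088 with array weights, −0.47 without control arrays 1 and 2), Hey1 (0.011 and 0.17), Rbpj (−0.020 with quantile normalization, −0.048 with probe sets averaged), Hes5 (−0.038 with quantile normalization), Aph1b (0.20 without control arrays 1 and 2) and Maml2 (0.023 there, 0.25 with probe sets averaged). With 1 array left out, differences ran from −0.047 to 0.34 for Notch1, −0.37 to 0.39 for Notch2, −0.033 to 0.087 for Notch4, −0.053 to 0.16 for Rbpj, −0.48 to 0.20 for Hey1, −0.13 to 0.054 for Dtx1, −0.45 to 0.12 for Dll1 and −0.23 to 0.74 for Pofut1. Genes without overlap were 2 to 4 of the 10 with 1 array left out, where 22.6% to 35.3% of all genes do not overlap, and 6 without control arrays 1 and 2, where 1 control is left, is assumed to vary like the other group, and 51.7% of all genes do not overlap. The median of the 86 was −0.026 with quantile normalization, 0.061 with median centring, −0.012 with array weights, 0.069 without control arrays 1 and 2, and −0.0072 to 0.037 with 1 array left out. The causes were not tested.

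With the replicate block, the median of the 10 stayed at −0.014 and 0 of them passed, and the count over all genes went from 1 to 0. Deviations of same-numbered arrays correlated at −0.023, 0.050 and 0.027. Control array 1 correlated best with RANKL-deficient array 3 (0.026), while control arrays 2 and 3 correlated best with the array of the same number. All these values are small and the labels state no pairing, so the numbers were not taken as pairs.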
